A study of Homo sapiens with 9 samples.

Results

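Aminoacyl-tRNA synthetases load each transfer RNA (tRNA) with its amino acid, and the transcripts of 36 of their genes were followed in BxPC3, an established cell line from a human ductal adenocarcinoma of the pancreas. The members were taken by symbol from the 60564 gene identifiers of the deposited table. A set of 20 encodes cytosolic enzymes and a set of 16, with symbols that end in 2, encodes mitochondrial enzymes. All 36 were present, and symbols are spelled as in that table. The groups were STAT3 knockdown by transfected small interfering RNA (siRNA), exposure to the compound WB436B at 0.1 µM, and vehicle. WB436B is named by its code alone. Each group had 3 libraries that the labels call biological replicates, all from the one cell line grown in the same serum-supplemented medium. No genotype differed between the groups. The sources used here do not give the time under treatment, the identity of the vehicle or a non-targeting siRNA control, so the effect of siRNA transfection itself cannot be told apart from that of STAT3 loss. Nothing beyond the word "biological" says that the libraries came from separate cultures, so p-values measure only how far these libraries differ from each other.

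Each synthetase recognises one amino acid and the tRNAs that carry it, and attaches them with energy from ATP, so that the ribosome reads the right residue at each codon. The cytosol and the mitochondrial matrix each need their own charged tRNAs. Most enzymes have a separate nuclear gene for each compartment, while GARS (glycine) and KARS (lysine) each supply both from one gene, and EPRS is a fused enzyme for glutamate and proline. A group of the cytosolic enzymes sits in a multi-synthetase complex on the scaffold proteins AIMP1, AIMP2 and EEF1E1. Many cytosolic synthetase genes are known targets of ATF4, the transcription factor of the amino acid response, which is switched on when uncharged tRNA builds up or the endoplasmic reticulum is stressed. ATF4 binds a composite C/EBP-ATF element in the promoters of its targets.

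The values are FPKM, fragment counts divided by transcript length and by the mapped total of the library, so levels of different genes can be compared per length. Estimated depth was 47200000 fragments in vehicle replicate 1 and 14900000 to 20400000 in the other libraries. A gene at 1 FPKM therefore rested on roughly 47.2 fragments per kilobase in vehicle replicate 1 and 14.9 to 20.4 in the others. Only counting error and library spread are covered by the errors given here. STAT3, the gene targeted by the siRNA, averaged 2.86 ± 0.242 FPKM after STAT3 siRNA, 10.7 ± 0.230 FPKM under WB436B and 15.8 ± 0.623 FPKM in vehicle cells (SD, n = 3 libraries each). Of 8 epithelial marker genes, 8 reached 1 FPKM in every library after STAT3 siRNA, 7 under WB436B and 7 in vehicle cells. A set of 10 markers of immune, endothelial, stromal, blood and liver cells summed to at most 7.30, 3.82 and 8.28 FPKM in those groups, most of it CD68, with COL1A2 listed at 0 in all STAT3 siRNA and vehicle libraries and ALB at 0 in all WB436B libraries. WB436B libraries held 10846 to 10903 genes at 1 FPKM or more, against 12231 to 12329 in the other libraries. These are bulk samples, so fewer cells with a transcript and less of it per cell cannot be told apart.

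Promoter sequences of the members were searched for the core letters of the ATF4 element. RefSeq promoters (GRCh38.p14, 250 bases before to 50 after the start) were matched for 30 members, and DARS, LARS, VARS, YARS, AARS2 and VARS2 had none in the table used. The core searched was TGATGNAA on both strands, so that some matches below show its reverse complement. It occurred in 8 of the 30 members, against 3.62% of 35116 promoters of the same length (1270) and 4.46% of 27305 genes with a promoter. By compartment it occurred in 7 of 16 cytosolic and 1 of 14 mitochondrial members. Among cytosolic enzymes listed as known ATF4 targets it occurred in 7 of 10, and among the other cytosolic enzymes in 0 of 6. The matched windows are shown on the gene's strand, 5′ to 3′, with the match in capitals, because these members are compared as a group later on.
AARS: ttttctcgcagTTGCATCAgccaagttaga
CARS: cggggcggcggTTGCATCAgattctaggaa
GARS: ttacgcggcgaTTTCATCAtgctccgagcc
IARS: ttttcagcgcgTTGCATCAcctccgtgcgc
MARS: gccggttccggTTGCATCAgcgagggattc
NARS: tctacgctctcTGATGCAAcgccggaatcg
TARS: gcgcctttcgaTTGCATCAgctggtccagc
YARS2: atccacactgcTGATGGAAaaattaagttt

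These windows lie at chr16:70289675-70289704 for AARS, chr11:3057407-3057436 for CARS, chr9:92293692-92293721 for IARS, chr18:57621804-57621833 for NARS and chr12:32756076-32756105 for YARS2, all on the minus strand. Those of GARS (chr7:30594834-30594863), MARS (chr12:57488053-57488082) and TARS (chr5:33440956-33440985) lie on the plus strand. The match began 187 bases before the start in AARS, 33 in GARS, 13 in IARS, 4 in MARS and 2 in CARS, and at transcribed base 15 in NARS and 3 in TARS. CARS, GARS, IARS, MARS, NARS and TARS thus hold it close to the start, while YARS2, the one mitochondrial gene with a match, holds it 197 bases upstream. CARS, GARS and TARS have a further promoter in the table without these letters. The E-box CACGTG, which MYC and related factors bind, occurred in 4 of the 30 members (IARS, CARS2, EARS2 and MARS2), against 7.26% of all promoters and 8.77% of genes with a promoter. A match is a description of the letters, and no binding was measured here.

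The cytosolic synthetase transcripts were more abundant than the mitochondrial ones in every group. The median member level was 30.5 FPKM for the cytosolic and 6.10 FPKM for the mitochondrial set after STAT3 siRNA, 27.9 and 4.73 FPKM under WB436B, and 27.0 and 4.19 FPKM in vehicle cells. Within the cytosolic set, group means spanned 7.13 to 81.7 FPKM after STAT3 siRNA, 5.41 to 90.5 FPKM under WB436B and 5.34 to 62.3 FPKM in vehicle cells. CARS (cysteine) was lowest in both treated groups and FARSB, the beta subunit of the phenylalanine enzyme, was lowest in vehicle cells. IARS2, the mitochondrial isoleucine enzyme, topped its set in all 3 groups, at 23.6 ± 1.04, 33.2 ± 1.21 and 30.3 ± 0.204 FPKM after STAT3 siRNA, under WB436B and in vehicle cells. FARS2, the mitochondrial phenylalanine enzyme, was lowest of all, at 0.82, 1.37 and 1.04 FPKM after STAT3 siRNA, 0.63, 0.88 and 0.92 FPKM under WB436B, and 0.75, 0.75 and 0.78 FPKM in vehicle cells. FARS2 reached 1 FPKM in fewer than 3 libraries and was the one member not tested.

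**Figure D1:**
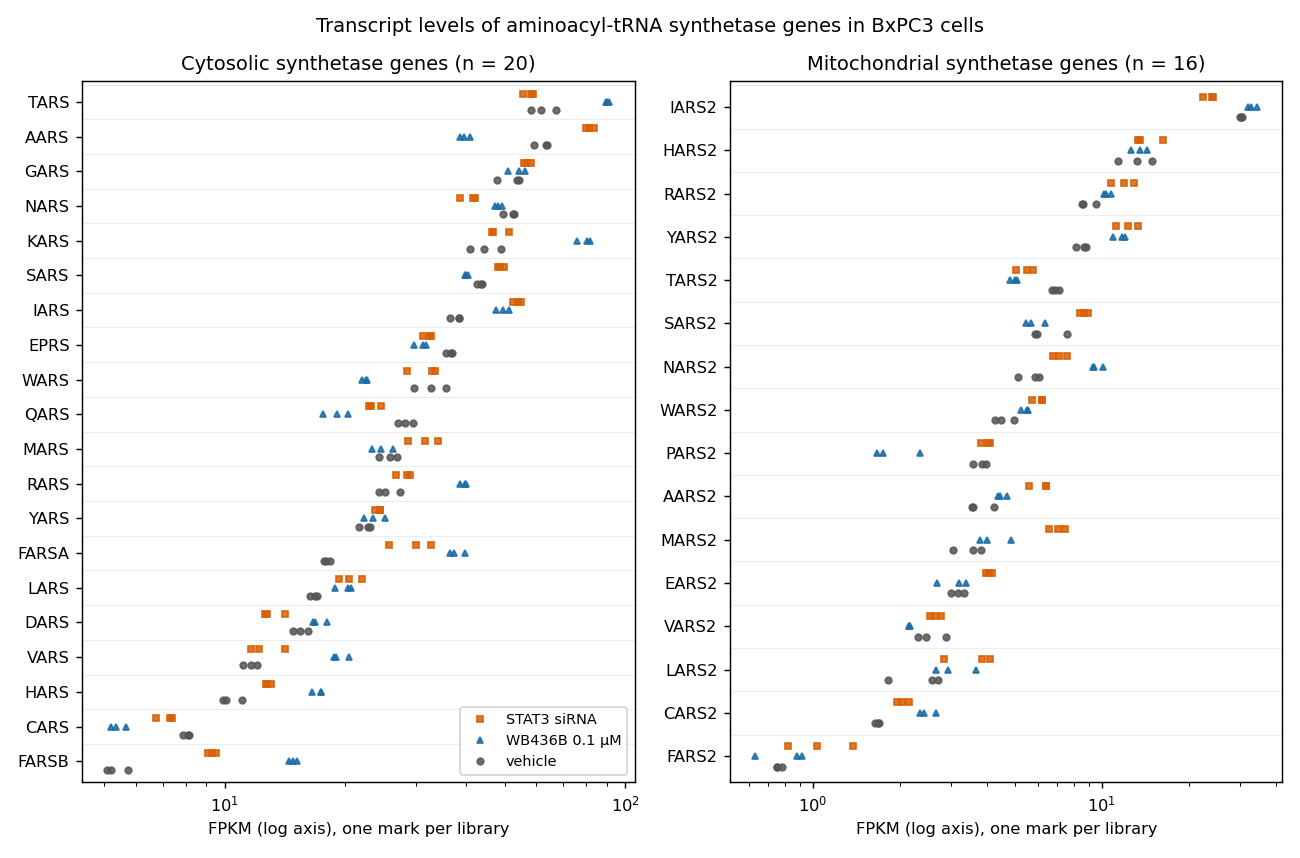
Transcript level in FPKM (log axis) of each cytosolic (left) and mitochondrial (right) synthetase gene, with one mark per library for STAT3 siRNA, WB436B and vehicle, ordered by the vehicle mean. TARS and KARS marks stand furthest right under WB436B, and AARS marks after STAT3 siRNA, up to 83.7 FPKM.

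The order at the top differed between groups. AARS, the alanine enzyme, was the most abundant member in all 3 STAT3 siRNA libraries, with 12.03 to 12.56% of the cytosolic sum, and in vehicle libraries 1 and 2. TARS, the threonine enzyme, was first in all 3 WB436B libraries, with 12.9 to 13.3% of the cytosolic sum, and in vehicle library 3. In vehicle cells the ranges of TARS and AARS overlapped, so their order is not resolved, whereas under WB436B TARS (90.2, 89.9 and 91.4 FPKM) stood clear of KARS (75.8, 81.6 and 80.4 FPKM), and KARS stood clear of GARS. When the 36 members are ranked by group mean, neighbours had separate ranges over 3 libraries in 16 of the steps and overlapping ranges in 19 after STAT3 siRNA, 18 and 17 under WB436B, and 18 and 17 in vehicle cells. About every other neighbouring pair therefore could not be ordered.

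STAT3 siRNA was set against vehicle to ask how the synthetase transcripts stood when STAT3 transcript was depleted. Of the 20 cytosolic members 8 rose and 5 fell, and of the 15 tested mitochondrial members 10 rose and 2 fell (limma on log2(FPKM + 1), adjusted p below 0.05). Over all 12747 genes tested 52.1% were called, 29.8% higher and 22.3% lower. The called members numbered 13 of 20 in the cytosolic set and 12 of 15 in the mitochondrial set. The median log2 fold change was 0.12 for the cytosolic members and 0.29 for the mitochondrial members, against 0.06 for all genes. The difference between the sets was not tested. Libraries did not overlap for 10 higher and 5 lower cytosolic members and 10 higher and 2 lower mitochondrial members, against 60.5% of all genes (35.1% higher, 25.3% lower).

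The cytosolic genes with the largest rises were both subunits of the phenylalanine enzyme. FARSB, the beta subunit, stood at 9.49, 9.27 and 9.11 FPKM after STAT3 siRNA, against 5.19, 5.09 and 5.75 FPKM in vehicle cells. FARSA, the catalytic alpha subunit, stood at 25.8, 32.8 and 29.99 FPKM after STAT3 siRNA, against 17.7, 18.3 and 17.9 FPKM in vehicle cells. Neither pair of groups overlapped, and the siRNA libraries of FARSA spread more widely than those of FARSB. The log2 fold changes were 0.70 (adjusted p = 1.2e-05) for FARSB and 0.68 (adjusted p = 1.8e-04) for FARSA.

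IARS, which charges isoleucine, had 54.9, 54.1 and 52.6 FPKM after STAT3 siRNA, against 36.5, 38.5 and 38.4 FPKM in vehicle cells. AARS had 79.9, 83.7 and 81.5 FPKM after STAT3 siRNA, against 63.4, 63.9 and 59.3 FPKM in vehicle cells. In both genes every siRNA library stood above every vehicle library. On the log2 scale IARS rose by 0.50 (SE 0.0416, adjusted p = 2.9e-05) and AARS by 0.39 (SE 0.0436, adjusted p = 1.4e-04). HARS (histidine), LARS (leucine), MARS (methionine) and SARS (serine) also rose, with log2 fold changes of 0.29, 0.29, 0.28 and 0.17. MARS shares 13.3% of its exon bases with other genes, mostly on the opposite strand and among them DDIT3, and whether the counting used strand is not given. DDIT3 stood at 27.4, 29.3 and 38.0 FPKM after STAT3 siRNA, against 10.7, 9.84 and 13.2 FPKM in vehicle cells, and its part in the MARS value was not tested.

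NARS, the asparagine enzyme, fell furthest among the cytosolic members after STAT3 siRNA. Its libraries held 42.2, 38.7 and 41.7 FPKM after STAT3 siRNA, against 49.4, 52.8 and 52.5 FPKM in vehicle cells, without overlap, for a log2 fold change of -0.33 (adjusted p = 5.0e-04). QARS (glutamine), DARS (aspartate), EPRS and CARS fell by smaller amounts, with log2 fold changes of -0.26, -0.21, -0.18 and -0.15. When libraries were scaled to equal totals, these 4 no longer passed the test (adjusted p = 0.057, 0.057, 0.12 and 0.18), and cytosolic members then split into 11 higher and 1 lower. CARS also missed the threshold without any one of vehicle replicates 1, 2 and 3 or siRNA replicates 1 and 3 (adjusted p = 0.052 to 0.11). GARS, KARS, RARS (arginine), TARS, VARS (valine), WARS (tryptophan) and YARS (tyrosine) were not called, with log2 fold changes of -0.11 to 0.13. With equal totals GARS, KARS and RARS passed as higher (adjusted p = 0.016, 0.048 and 0.042), as did GARS and RARS with quantile normalization (0.034 and 0.048), and TARS passed as lower with median-of-ratios scaling (-0.18, adjusted p = 0.018). RARS also passed without vehicle replicate 2 (0.18, adjusted p = 0.025) or siRNA replicate 2 (0.16, adjusted p = 0.048), and TARS passed as lower without vehicle replicate 1 (-0.16, adjusted p = 0.040).

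Most mitochondrial members stood higher after STAT3 siRNA. MARS2, the mitochondrial methionine enzyme, had 6.58, 7.07 and 7.43 FPKM after STAT3 siRNA, against 3.59, 3.07 and 3.82 FPKM in vehicle cells. AARS2, the mitochondrial alanine enzyme, had 6.42, 6.39 and 5.60 FPKM after STAT3 siRNA, against 4.22, 3.54 and 3.58 FPKM in vehicle cells. YARS2, for tyrosine, had 13.3, 11.2 and 12.4 FPKM after STAT3 siRNA, against 8.16, 8.69 and 8.85 FPKM in vehicle cells. The groups did not overlap in any of these genes, and MARS2 doubled, at 201% of the vehicle mean. The log2 fold changes were 0.84 (SE 0.0938, adjusted p = 1.3e-04) for MARS2, 0.58 (adjusted p = 2.7e-04) for AARS2 and 0.47 (adjusted p = 5.1e-04) for YARS2.

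Further rises were found for LARS2 (leucine, 0.45), SARS2 (serine, 0.38), RARS2 (arginine, 0.38), WARS2 (tryptophan, 0.34), NARS2 (asparagine, 0.29), EARS2 (glutamate, 0.28) and CARS2 (cysteine, 0.19), all as log2 fold changes. LARS2 and CARS2 no longer passed under median-of-ratios scaling (adjusted p = 0.060 and 0.073). LARS2 also missed the threshold without vehicle replicate 3 or siRNA replicates 1 or 2 (adjusted p = 0.10, 0.096 and 0.11), and CARS2 without vehicle replicates 1 or 2 or siRNA replicates 1 or 3 (adjusted p = 0.051 to 0.071). SARS2 is uncertain for another reason, since 57.0% of its exon bases are shared with MRPS12 or AC011455.2, and 71.6% of its 75-base stretches also occur in AC011455.2. IARS2 and TARS2 (threonine) were the 2 that fell. IARS2 had 24.3, 22.4 and 24.1 FPKM after STAT3 siRNA, against 30.1, 30.5 and 30.3 FPKM in vehicle cells, a log2 fold change of -0.35 (adjusted p = 3.0e-04). TARS2 had 5.05, 5.49 and 5.77 FPKM after STAT3 siRNA, against 6.75, 6.89 and 7.12 FPKM in vehicle cells, a log2 fold change of -0.30 (adjusted p = 0.0018). Both sets of libraries were fully apart. HARS2 (histidine), PARS2 (proline) and VARS2 (valine) were not called, with log2 fold changes of 0.12, 0.05 and 0.04.

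**Figure D2:**
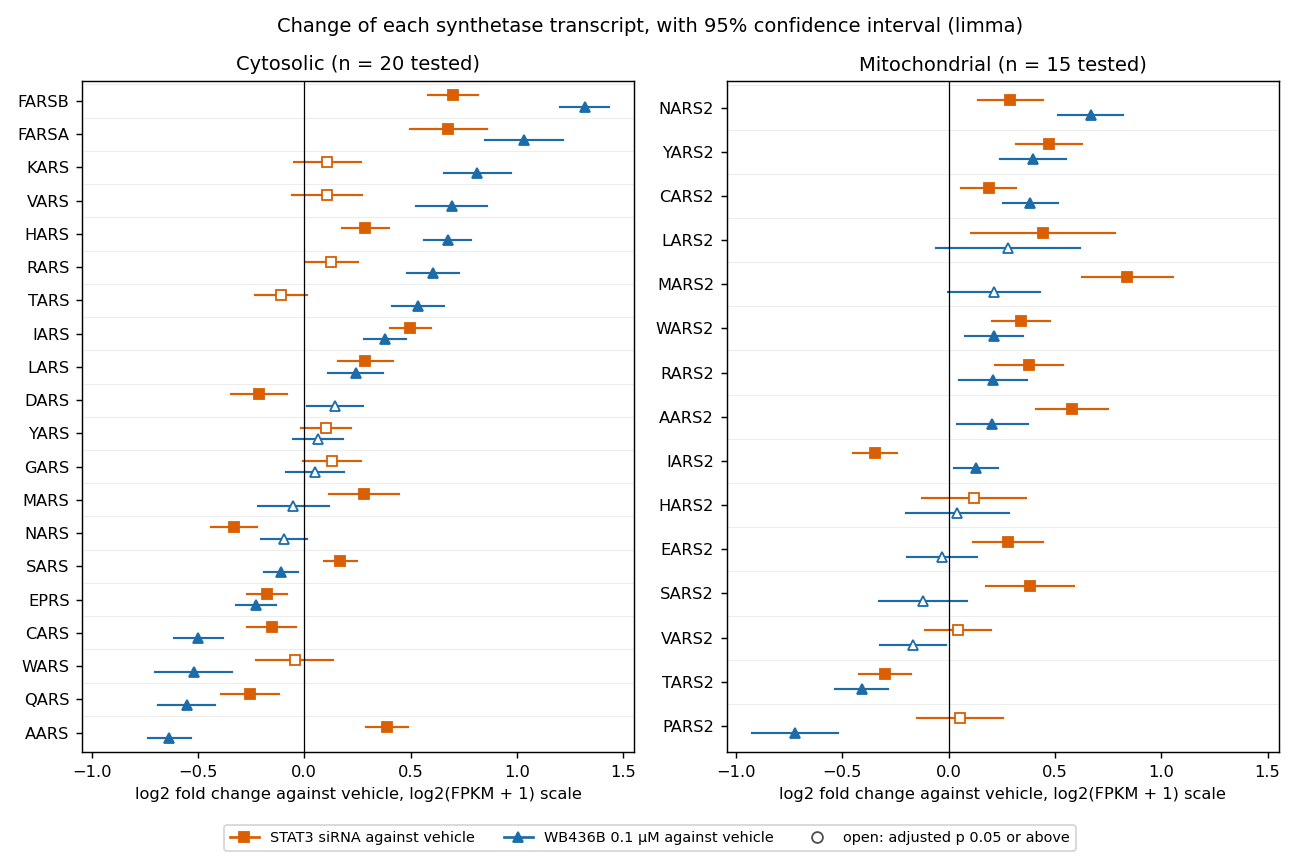
Log2 fold change with its 95% confidence interval (limma, n = 3 libraries per group) of each tested synthetase gene, STAT3 siRNA against vehicle (squares) and WB436B against vehicle (triangles), with cytosolic genes left and mitochondrial genes right. Filled marks have an adjusted p below 0.05. FARSB and FARSA lead the cytosolic panel under WB436B, and AARS lies on opposite sides of 0 in the 2 comparisons, which share their vehicle libraries.

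WB436B was set against vehicle to ask how the same transcripts stood under the compound. Of the 20 cytosolic members 9 rose and 6 fell, and of the 15 tested mitochondrial members 7 rose and 2 fell. Over all genes tested 65.9% were called, 24.9% higher and 41.1% lower. The median log2 fold change was 0.10 for the cytosolic members and 0.21 for the mitochondrial members, against -0.13 for all genes. Median-of-ratios scaling moved the median of all genes to 0.00, and the split of all called genes from 3168 higher and 5234 lower to 4219 and 4228. The cytosolic split was then 12 higher and 4 lower, and the mitochondrial split 9 higher and 2 lower. Libraries did not overlap for 10 higher and 7 lower cytosolic members and 7 higher and 3 lower mitochondrial members, against 70.1% of all genes (26.8% higher, 43.3% lower). On the deposited scale a member at a log2 fold change of 0 thus stood 0.13 above the median gene.

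FARSB showed the largest change of any member. It stood at 15.1, 14.5 and 14.8 FPKM under WB436B, against 5.19, 5.09 and 5.75 FPKM in vehicle cells, which is 277% of the vehicle mean. FARSA stood at 39.8, 36.5 and 37.3 FPKM under WB436B, against 17.7, 18.3 and 17.9 FPKM in vehicle cells, or 211%. Every WB436B library lay far above every vehicle library in both subunits. The log2 fold changes were 1.32 for FARSB (SE 0.0506, adjusted p = 2.0e-07) and 1.03 for FARSA (SE 0.0797, adjusted p = 7.4e-06). FARS2, the single-chain mitochondrial counterpart, was at 107% of the vehicle mean, with overlapping libraries.

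KARS, which charges lysine in both compartments and is part of the multi-synthetase complex, held 75.8, 81.6 and 80.4 FPKM under WB436B, against 41.1, 44.3 and 48.9 FPKM in vehicle cells. TARS held 90.2, 89.9 and 91.4 FPKM under WB436B, against 58.2, 61.6 and 67.1 FPKM in vehicle cells. HARS held 17.4, 17.4 and 16.5 FPKM under WB436B, against 11.02, 10.1 and 9.92 FPKM in vehicle cells. These abundant and middle-range transcripts were all separated between the groups. Their log2 fold changes were 0.81 (SE 0.0690, adjusted p = 1.3e-05) for KARS, 0.54 (adjusted p = 3.6e-05) for TARS and 0.67 (adjusted p = 4.9e-06) for HARS. VARS, with 19.0, 18.8 and 20.5 FPKM under WB436B, against 11.7, 12.1 and 11.1 FPKM in vehicle cells, rose by 0.69 (adjusted p = 4.3e-05). RARS, with 40.2, 39.8 and 38.7 FPKM under WB436B, against 25.2, 27.5 and 24.3 FPKM in vehicle cells, rose by 0.61 (adjusted p = 1.7e-05). IARS and LARS rose by 0.38 and 0.24, so that the charging enzymes of all 3 branched-chain amino acids were higher in the cytosolic set.

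AARS was the cytosolic member that fell furthest under WB436B. It held 38.7, 39.5 and 40.9 FPKM under WB436B, against 63.4, 63.9 and 59.3 FPKM in vehicle cells, which is 63.8% of vehicle, a change of -0.63 on the log2 scale (SE 0.0436, adjusted p = 3.7e-06). QARS held 17.6, 19.1 and 20.3 FPKM under WB436B, against 28.3, 29.6 and 27.1 FPKM in vehicle cells. WARS held 21.98, 22.7 and 22.6 FPKM under WB436B, against 29.7, 32.7 and 35.7 FPKM in vehicle cells. CARS held 5.36, 5.65 and 5.20 FPKM under WB436B, against 8.08, 7.89 and 8.15 FPKM in vehicle cells. All of these fell without overlap between the groups. The log2 fold changes were -0.55 for QARS (adjusted p = 5.1e-05), -0.52 for WARS (adjusted p = 4.2e-04) and -0.50 for CARS (adjusted p = 3.5e-05).

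The falls of EPRS (-0.23, adjusted p = 0.0012) and SARS (-0.11, adjusted p = 0.021) depended on the scaling. With median-of-ratios scaling EPRS was at -0.07 (adjusted p = 0.17) and SARS turned to 0.05 (adjusted p = 0.26). SARS also missed the threshold without vehicle replicate 1 or WB436B replicates 1 or 2 (adjusted p = 0.061, 0.051 and 0.069). DARS, GARS, MARS, NARS and YARS were not called, with log2 fold changes of -0.10 to 0.14. Of these, DARS, GARS and YARS passed as higher under median-of-ratios scaling (0.30, 0.21 and 0.22), DARS also with equal totals (0.22, adjusted p = 0.017), and NARS passed as lower after quantile normalization (-0.24, adjusted p = 0.0026). DARS passed as well without vehicle replicate 3 or siRNA replicate 1 (adjusted p = 0.044 and 0.038).

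Among the mitochondrial members NARS2 rose furthest under WB436B. It held 10.1, 9.41 and 9.34 FPKM under WB436B, against 6.04, 5.15 and 5.87 FPKM in vehicle cells, a rise of 0.67 on the log2 scale (SE 0.0676, adjusted p = 3.4e-05). YARS2 rose by 0.40 and CARS2 by 0.38, with CARS2 at 2.35, 2.68 and 2.43 FPKM under WB436B, against 1.68, 1.64 and 1.70 FPKM in vehicle cells. WARS2, RARS2, AARS2 and IARS2 rose by 0.21, 0.21, 0.21 and 0.13. The last 3 were less secure. RARS2 missed the threshold without vehicle replicates 1 or 2 or WB436B replicates 1 or 2 (adjusted p = 0.057 to 0.085). AARS2 missed it without vehicle replicates 2 or 3 or any one WB436B replicate (adjusted p = 0.056 to 0.11). IARS2 missed it without any one vehicle replicate or WB436B replicates 1 or 3 (adjusted p = 0.060 to 0.10), and was at -0.01 (adjusted p = 0.91) after quantile normalization. The count of mitochondrial members called higher was 4 without vehicle replicate 2 and 4 without WB436B replicate 1.

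PARS2, the mitochondrial proline enzyme, was the member whose level roughly halved. It held 1.75, 1.67 and 2.35 FPKM under WB436B, against 3.59, 3.84 and 3.99 FPKM in vehicle cells, which is 50.5% of vehicle, a change of -0.72 on the log2 scale (SE 0.0890, adjusted p = 1.1e-04). TARS2 held 4.99, 5.07 and 4.82 FPKM under WB436B, against 6.75, 6.89 and 7.12 FPKM in vehicle cells, and fell by 0.41 on the log2 scale (adjusted p = 1.8e-04). The groups were apart in both. EARS2, HARS2, LARS2, MARS2, SARS2 and VARS2 were not called, with log2 fold changes of -0.17 to 0.28. MARS2 passed as higher under all 3 other scalings (adjusted p = 0.028 with equal totals, 0.012 by median of ratios and 0.0065 after quantile normalization). LARS2 passed as higher under median-of-ratios scaling and quantile normalization (adjusted p = 0.042 and 0.015), and EARS2 turned to 0.20 and passed as higher under quantile normalization (adjusted p = 0.034). Without WB436B replicate 2 MARS2 passed as higher (0.27, adjusted p = 0.047), and without vehicle replicate 2 VARS2 passed as lower (-0.22, adjusted p = 0.028). VARS2 shares 22% of its exon bases with GTF2H4, and HARS2 shares 15.8% with HARS and ZMAT2.

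**Figure D3:**
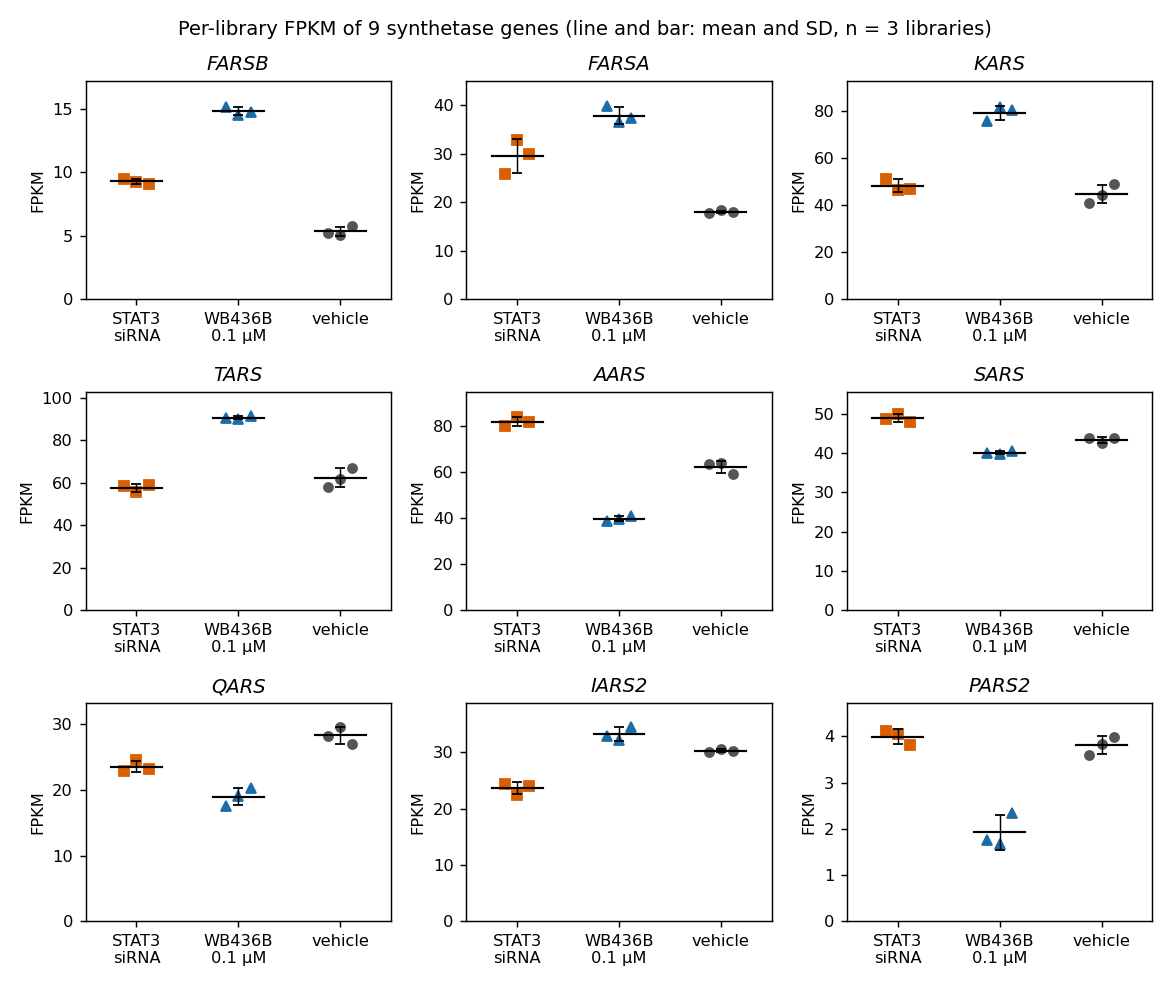
FPKM of 9 synthetase genes in each library of the STAT3 siRNA, WB436B and vehicle groups, with the mean and SD of 3 libraries. FARSB stands near 9 FPKM after STAT3 siRNA, near 15 FPKM under WB436B and near 5 FPKM in vehicle cells, and AARS lies highest after STAT3 siRNA and lowest under WB436B.

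WB436B was then set directly against STAT3 siRNA, which is the test of whether the 2 treatments left a transcript at different levels. Of the 20 cytosolic members 9 were higher and 7 lower under WB436B, and of the 15 tested mitochondrial members 3 were higher and 6 lower. Over all genes 64.1% were called, 20.0% higher and 44.1% lower. The median log2 fold change was -0.04 for cytosolic members and -0.17 for mitochondrial members, against -0.18 for all genes. Libraries did not overlap for 9 higher and 7 lower cytosolic members and 3 higher and 8 lower mitochondrial members, against 70.2% of all genes (22.7% higher, 47.5% lower). Scaling mattered here, since under median-of-ratios scaling the cytosolic split was 14 higher and 3 lower, the mitochondrial split 3 and 3, and both medians were positive, at 0.18 and 0.05.

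AARS had the largest difference between the treatments on the log2(FPKM + 1) scale. It averaged 39.7 ± 1.12 FPKM under WB436B and 81.7 ± 1.94 FPKM after STAT3 siRNA (SD, n = 3 each), a log2 fold change of -1.02 (adjusted p = 5.6e-07), and it stood on either side of the vehicle mean of 62.2 ± 2.53 FPKM. The value stayed between -1.16 and -0.79 under the other scalings. PARS2 averaged 1.92 ± 0.370 FPKM under WB436B and 3.99 ± 0.161 FPKM after STAT3 siRNA, a log2 fold change of -0.78 (adjusted p = 8.5e-05). As plain ratios of group means, WB436B stood at 48.15% of STAT3 siRNA for PARS2 and 48.6% for AARS. MARS2 averaged 4.21 ± 0.558 FPKM under WB436B and 7.03 ± 0.429 FPKM after STAT3 siRNA, a log2 fold change of -0.63 (adjusted p = 4.4e-04). In each of the 3 genes no WB436B library reached a siRNA library.

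In the other direction, KARS averaged 79.2 ± 3.04 FPKM under WB436B and 48.3 ± 2.65 FPKM after STAT3 siRNA, a log2 fold change of 0.70 (adjusted p = 3.7e-05). TARS averaged 90.5 ± 0.812 FPKM under WB436B and 57.6 ± 1.85 FPKM after STAT3 siRNA, a log2 fold change of 0.64 (adjusted p = 1.6e-05). FARSB, higher than vehicle in both treatments, averaged 14.8 ± 0.317 FPKM under WB436B and 9.29 ± 0.192 FPKM after STAT3 siRNA, a log2 fold change of 0.62 (adjusted p = 1.4e-05). VARS, RARS, HARS, DARS, FARSA and NARS were also higher under WB436B, by 0.59, 0.48, 0.39, 0.36, 0.35 and 0.23. The NARS difference did not pass after quantile normalization (0.06, adjusted p = 0.29). IARS2 was higher under WB436B by 0.48 (adjusted p = 3.0e-05), NARS2 by 0.38 and CARS2 by 0.19, and CARS2 missed the threshold without WB436B replicate 2 (0.15, adjusted p = 0.057).

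The remaining lower calls under WB436B were WARS (-0.48), CARS (-0.34), MARS (-0.33), QARS (-0.30), SARS (-0.28) and IARS (-0.12) in the cytosolic set, and SARS2 (-0.50), AARS2 (-0.37), EARS2 (-0.31) and VARS2 (-0.21) in the mitochondrial set. Several rested on the scale. MARS, QARS, SARS, AARS2, EARS2 and VARS2 did not pass under median-of-ratios scaling (adjusted p = 0.078 to 0.57), and IARS turned to 0.11 there and passed as higher (adjusted p = 0.037). IARS missed the threshold without siRNA replicates 1 or 2 or WB436B replicates 1 or 2 (adjusted p = 0.077 to 0.12), and VARS2 without siRNA replicates 2 or 3 or any one WB436B replicate (adjusted p = 0.052 to 0.073). EPRS, GARS, LARS, YARS, HARS2, LARS2, RARS2, TARS2, WARS2 and YARS2 were not called, with log2 fold changes of -0.17 to -0.04. Under median-of-ratios scaling EPRS, GARS, LARS and YARS passed as higher (adjusted p = 0.0054, 0.038, 0.024 and 0.015), and under quantile normalization EPRS, GARS and YARS passed as lower (adjusted p = 0.0089, 0.0037 and 0.027), so their direction is not settled. RARS2 passed as lower without siRNA replicate 2 (-0.23, adjusted p = 0.016) and TARS2 without siRNA replicate 1 (-0.15, adjusted p = 0.038).

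SARS and IARS2, beside AARS, had calls of opposite sign against vehicle. SARS held 48.8, 49.99 and 48.1 FPKM after STAT3 siRNA, 40.1, 39.7 and 40.6 FPKM under WB436B, and 43.9, 42.6 and 43.8 FPKM in vehicle cells. Its libraries fell into separate ranges by group, while the direction of the small WB436B change turned with the scaling, as given above. IARS2 held 24.3, 22.4 and 24.1 FPKM after STAT3 siRNA, 32.9, 32.2 and 34.6 FPKM under WB436B, and 30.1, 30.5 and 30.3 FPKM in vehicle cells. The small IARS2 rise under WB436B was one of the less secure calls given above, at -0.01 (adjusted p = 0.91) after quantile normalization. GARS, the other gene that serves both compartments, held 56.9, 55.8 and 58.1 FPKM after STAT3 siRNA, 51.1, 56.4 and 54.3 FPKM under WB436B, and 47.8, 53.8 and 54.5 FPKM in vehicle cells. On the deposited scale GARS was not called in any of the 3 comparisons, with log2 fold changes of 0.13, 0.05 and -0.08, and KARS was not called after STAT3 siRNA (0.11, adjusted p = 0.22). Other scalings gave calls for GARS in each. It passed as higher after STAT3 siRNA with equal totals (adjusted p = 0.016) and quantile normalization (0.034), and as higher under WB436B against vehicle with median-of-ratios scaling (0.0084). Between the treatments it passed in both directions, as higher under median-of-ratios scaling (adjusted p = 0.038) and as lower after quantile normalization (0.0037).

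The phenylalanine enzyme is the one cytosolic synthetase built from the products of 2 genes, and the ratio of its subunit transcripts was compared within libraries. FARSB over FARSA was 0.391 ± 0.00960 under WB436B, 0.318 ± 0.0446 after STAT3 siRNA and 0.297 ± 0.0216 in vehicle cells. The WB436B libraries (0.380, 0.397 and 0.397) lay above all vehicle libraries (0.293, 0.278 and 0.321), while the siRNA libraries (0.368, 0.283 and 0.304) overlapped them. FARSA transcript thus exceeded FARSB transcript in every library on the per-length scale.

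The multi-synthetase complex holds 8 of the cytosolic enzymes (DARS, EPRS, IARS, KARS, LARS, MARS, QARS and RARS). After STAT3 siRNA 3 of the 8 rose and 3 fell, with a median log2 fold change of 0.12. Under WB436B 4 rose and 2 fell, with a median of 0.19, against -0.13 for all genes. The 12 cytosolic members outside the complex split into 5 higher and 2 lower after STAT3 siRNA and 5 higher and 4 lower under WB436B. Over all genes 52.1% were called after STAT3 siRNA and 65.9% under WB436B. The complex members did not move as a block in either comparison, with KARS and QARS at 0.81 and -0.55 under WB436B.

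The scaffold transcripts were higher under WB436B. AIMP2, the central scaffold, held 17.3, 14.7 and 15.5 FPKM after STAT3 siRNA, 17.97, 18.97 and 17.87 FPKM under WB436B, and 11.5, 11.3 and 10.9 FPKM in vehicle cells. AIMP2 rose by 0.45 after STAT3 siRNA (adjusted p = 3.4e-04) and by 0.65 under WB436B (adjusted p = 2.1e-05). AIMP1, which binds tRNA, rose by 0.43 under WB436B (adjusted p = 0.015), and EEF1E1 by 0.77 (adjusted p = 0.0059). The vehicle libraries of EEF1E1 were uneven, at 6.63, 6.43 and 11 FPKM, below all WB436B libraries at 15.7, 13.1 and 13.3 FPKM. After STAT3 siRNA AIMP1 and EEF1E1 were not called, with 0.18 and 0.38. The count called after STAT3 siRNA was 2 of 3 without vehicle replicate 3, and with single libraries left out 2 or 3 of the 3 were called under WB436B. Of all tested genes 52.1% were called after STAT3 siRNA (29.8% higher) and 65.9% under WB436B (24.9% higher).

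The 13 cytosolic synthetases listed as ATF4 targets were compared with the 7 others (DARS, HARS, KARS, QARS, RARS, FARSA and FARSB). After STAT3 siRNA, 5 of the 13 listed genes rose and 3 fell, with a median log2 fold change of 0.11. Under WB436B 4 rose and 5 fell, with a median of -0.05. Of the 7 others, 3 rose and 2 fell after STAT3 siRNA, with a median of 0.13, and 5 rose and 1 fell under WB436B, with a median of 0.67. The share of all genes called, in either direction, was 52.1% after STAT3 siRNA and 65.9% under WB436B, and the calls among the listed genes were near it in both comparisons. By direction, 29.8% were higher and 22.3% lower after STAT3 siRNA, with a median of 0.06. Under WB436B 24.9% were higher and 41.1% lower, with a median of -0.13. The difference between the lists was not tested. The listed genes that rose under WB436B were IARS, LARS, TARS and VARS, and those that fell were AARS, CARS, EPRS, SARS and WARS. The median of the listed set under WB436B turned to 0.10 with median-of-ratios scaling, while that of the others was 0.83. Among the listed genes that hold the letters close to the start, the log2 fold changes under WB436B ran from -0.50 for CARS to 0.54 for TARS, on both sides of 0, and AARS, with the match further upstream, was at -0.63.

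**Figure D4:**
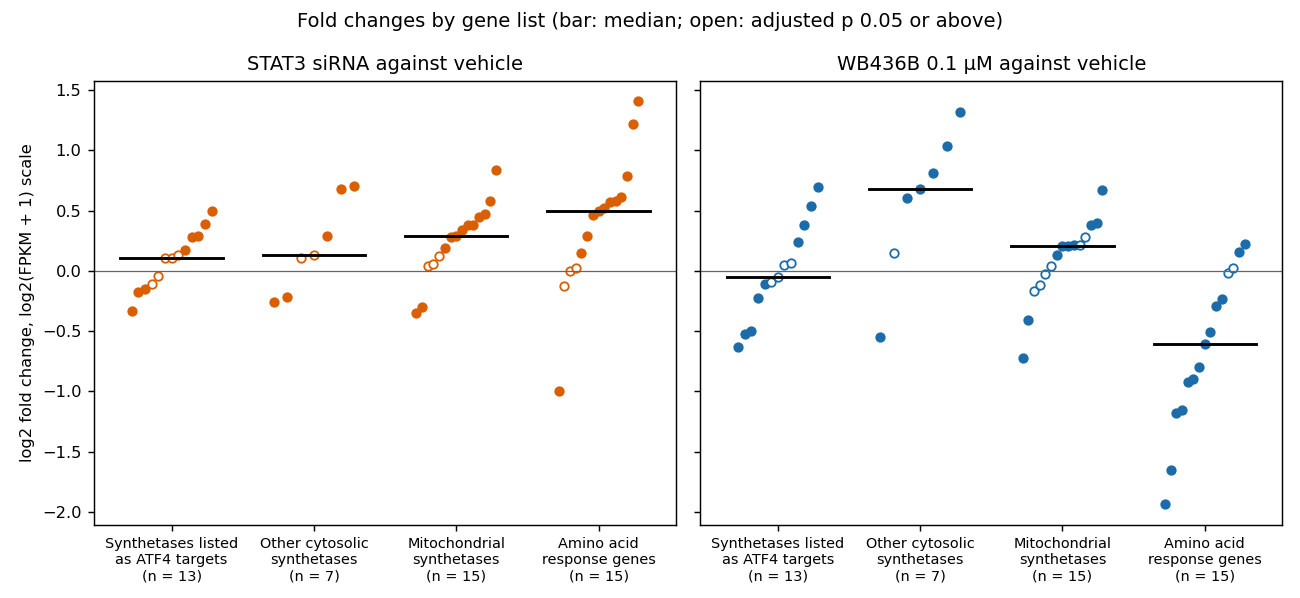
Log2 fold change of each gene by list, STAT3 siRNA against vehicle (left) and WB436B against vehicle (right), with bars at the list medians and filled circles for adjusted p below 0.05. The amino acid response genes have medians of 0.50 after STAT3 siRNA and -0.61 under WB436B, while the listed synthetases have medians of 0.11 and -0.05.

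Other genes of the amino acid response were followed beside the synthetases. ATF4 transcript held 203.3, 209.4 and 215.6 FPKM after STAT3 siRNA, 113.5, 105.4 and 101.2 FPKM under WB436B, and 147.5, 148.9 and 159.8 FPKM in vehicle cells, 3 separate ranges. Its log2 fold change was 0.46 after STAT3 siRNA (adjusted p = 1.8e-04) and -0.51 under WB436B (adjusted p = 5.1e-05). ATF4 is also controlled at translation, which transcript levels do not show. Of the 15 listed response genes 11 rose and 1 fell after STAT3 siRNA, with a median log2 fold change of 0.50, and 2 rose and 11 fell under WB436B, with a median of -0.61. The share of all genes called higher was 29.8% and lower 22.3% after STAT3 siRNA, and 24.9% and 41.1% under WB436B. Single response genes reached 1.41 after STAT3 siRNA, with CEBPB lowest, and ran from -1.94 to 0.22 under WB436B. The count called higher after STAT3 siRNA was 7 without any one of vehicle replicate 1, siRNA replicate 1 or siRNA replicate 3. Set directly against STAT3 siRNA, all 15 were lower under WB436B (14 with median-of-ratios scaling).

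PSAT1, an enzyme of serine synthesis, stood at 57.1, 54.1 and 58.6 FPKM after STAT3 siRNA, 8.81, 8.76 and 8.93 FPKM under WB436B, and 35.8, 36.6 and 37.8 FPKM in vehicle cells. Its log2 fold change was 0.61 after STAT3 siRNA and -1.94 under WB436B. ASNS, which makes asparagine, averaged 12.5 ± 1.49 FPKM after STAT3 siRNA, 4.03 ± 0.221 FPKM under WB436B and 8.59 ± 2.42 FPKM in vehicle cells. TRIB3, a pseudokinase induced by ATF4, was at 1.22 and -0.23, and CHAC1, which breaks down glutathione, at -0.13 (adjusted p = 0.22) and -1.18, in the same order of comparisons. CEBPB, a partner of ATF4 on its element, fell in both, by 1.00 after STAT3 siRNA and 1.66 under WB436B on the log2 scale. SLC7A5, a transporter of large neutral amino acids, rose by 0.79 and 0.15. Both comparisons share the vehicle libraries.

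MYC, a STAT3 target that is known to act on many genes of protein synthesis, was too uneven for a call. It stood at 10.5, 11.3 and 3.49 FPKM after STAT3 siRNA, 14.1, 13.1 and 14.8 FPKM under WB436B, and 2.93, 4.30 and 13.9 FPKM in vehicle cells. Vehicle replicate 3 and siRNA replicate 3 stood apart from their groups, with adjusted p = 0.61 after STAT3 siRNA and 0.082 under WB436B. The 4 members with an E-box in the promoter, IARS, CARS2, EARS2 and MARS2, had log2 fold changes of 0.50, 0.19, 0.28 and 0.84 after STAT3 siRNA and 0.38, 0.38, -0.03 and 0.21 under WB436B, and any part of MYC in them was not tested.

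Summed over its members, each set had a higher synthetase FPKM in both treated groups than in vehicle cells. GARS and KARS, which supply both compartments, were counted in the cytosolic sum alone. Abundant members weigh most in such sums. KARS averaged 79.2 and TARS 90.5 FPKM under WB436B, against 44.75 and 62.3 FPKM in vehicle cells, while 6 cytosolic members were called lower. These sums are relative to the library total. Mitochondrially encoded genes took 34.87 to 38.38% of that total in vehicle libraries and 31.57 to 32.54% in treated libraries. Their part in the sums was not tested. The cytosolic sum was 664.1, 666.5 and 662.9 FPKM after STAT3 siRNA, 681.1, 695.4 and 703 FPKM under WB436B, and 592.9, 619.7 and 619.8 FPKM in vehicle cells. The mitochondrial sum was 121.2, 117 and 122.3 FPKM after STAT3 siRNA, 117.9, 114.9 and 118 FPKM under WB436B, and 106.9, 104.1 and 107.7 FPKM in vehicle cells. Treated libraries lay above all vehicle libraries in both sums. The cytosolic sum after STAT3 siRNA was 1.04 times that of vehicle cells under median-of-ratios scaling and 1.13 times with equal totals. In the same order of scalings, the mitochondrial sum after STAT3 siRNA was 1.075 and 1.174 times vehicle. Under WB436B the cytosolic sum was 1.270 and 1.193 times vehicle, and the mitochondrial sum 1.231 and 1.156 times. The size of each rise thus depends on the scale. The ratio of the cytosolic to the mitochondrial sum, which rescaling whole libraries does not change, averaged 5.53 ± 0.146 after STAT3 siRNA, 5.93 ± 0.140 under WB436B and 5.75 ± 0.204 in vehicle cells. These ratios overlapped between each treated group and vehicle, with siRNA libraries at 5.42 to 5.70, WB436B libraries at 5.78 to 6.05 and vehicle libraries at 5.54 to 5.95. The WB436B and siRNA libraries did not overlap.

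**Figure D5:**
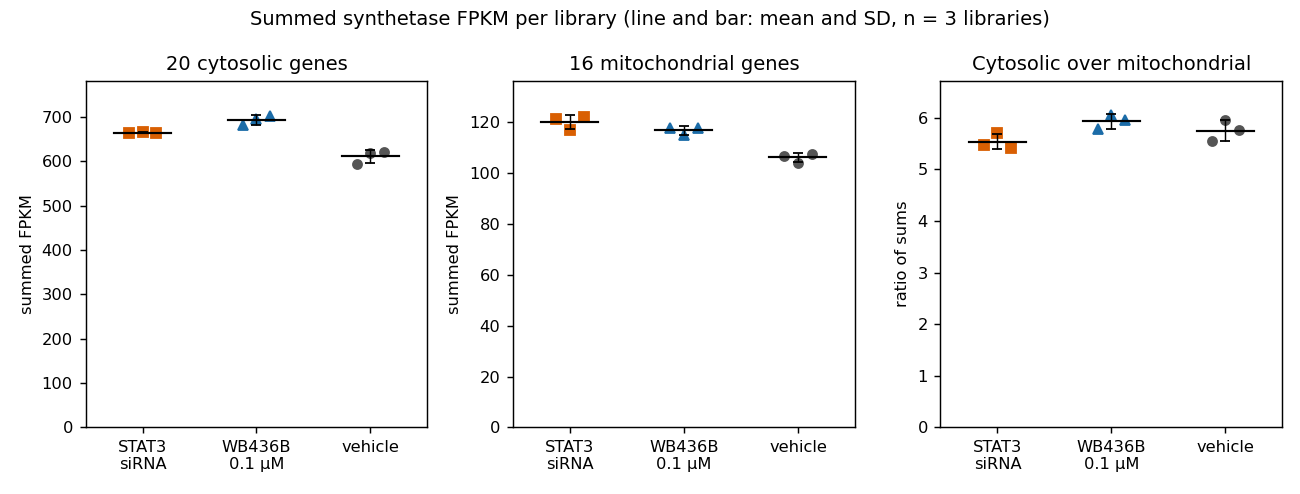
Summed FPKM of the 20 cytosolic and 16 mitochondrial synthetase genes in each library, and the ratio of both sums, with the mean and SD of 3 libraries. Both sums stand higher in the STAT3 siRNA and WB436B libraries than in all vehicle libraries, while the ratios of each treated group overlap those of vehicle and the WB436B ratios lie above the siRNA ratios.

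Ratios were also taken between the partners for single amino acids. The cytosolic over mitochondrial ratio for threonine (TARS over TARS2) was 10.6 ± 0.803 after STAT3 siRNA, 18.3 ± 0.646 under WB436B and 8.99 ± 0.401 in vehicle cells. That for alanine (AARS over AARS2) was 13.4 ± 1.08, 8.82 ± 0.551 and 16.5 ± 1.52 in the same order of groups. The threonine ratio was thus highest and the alanine ratio lowest under WB436B. For asparagine (NARS over NARS2) the ratio was 5.70 ± 0.223 after STAT3 siRNA and 5.02 ± 0.313 under WB436B, against 9.13 ± 1.05 in vehicle cells. For cysteine (CARS over CARS2) it was 3.49 ± 0.244 after STAT3 siRNA and 2.18 ± 0.0911 under WB436B, against 4.81 ± 0.0138 in vehicle cells. For valine (VARS over VARS2) it was 4.77 ± 0.492 after STAT3 siRNA and 9.02 ± 0.453 under WB436B, against 4.61 ± 0.696 in vehicle cells. Isoleucine (IARS over IARS2) had its highest ratio after STAT3 siRNA, at 2.28 ± 0.117, with 1.49 ± 0.0484 under WB436B and 1.25 ± 0.0298 in vehicle cells. The proline pair, EPRS over PARS2, stood at 8.06 ± 0.458 after STAT3 siRNA and 16.5 ± 2.63 under WB436B, against 9.59 ± 0.665 in vehicle cells, below vehicle in one treatment and above it in the other without overlap. The glutamate pair, EPRS over EARS2, stood at 7.90 ± 0.380 after STAT3 siRNA and 10.1 ± 1.55 under WB436B, against 11.5 ± 0.816 in vehicle cells, and the WB436B libraries overlapped vehicle. Ratios for methionine, tryptophan and tyrosine lay below vehicle without overlap in both treatments. That for arginine lay below vehicle after STAT3 siRNA and above it under WB436B, without overlap. The histidine ratio, and FARSA or FARSB over FARS2, overlapped vehicle after STAT3 siRNA and lay above it under WB436B. Leucine and serine ratios overlapped vehicle in both treatments. Rescaling whole libraries does not change such ratios.

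The synthetases fall into class I and class II by the fold of their catalytic domain, with EPRS holding one of each. EPRS, called lower in both comparisons with vehicle, was therefore left out of both class counts. Of 18 class I members 10 rose and 3 fell after STAT3 siRNA, and 9 rose and 3 fell under WB436B. Of 16 tested class II members 8 rose and 3 fell after STAT3 siRNA, and 7 rose and 4 fell under WB436B. The class medians were 0.23 and 0.15 after STAT3 siRNA and 0.21 and 0.10 under WB436B, so both classes held rising and falling members in each comparison. Over all genes 52.1% were called after STAT3 siRNA and 65.9% under WB436B, and the shares of both classes called under WB436B were close to that second figure.

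Genes that act before and after charging were set beside the synthetases. Of 14 tested genes of tRNA maturation and export, 11 rose and 0 fell after STAT3 siRNA, with a median log2 fold change of 0.32, and 7 rose and 2 fell under WB436B, with a median of 0.38. Of all tested genes 29.8% rose and 22.3% fell after STAT3 siRNA, with a median of 0.06, and 24.9% and 41.1% under WB436B, with a median of -0.13. XPOT, which exports tRNA from the nucleus, held 39.4, 38.3 and 40.1 FPKM after STAT3 siRNA, 32.8, 33.1 and 33.8 FPKM under WB436B, and 24.2, 24.2 and 23.8 FPKM in vehicle cells. The 3 groups of XPOT were fully separate. ELAC2, which trims the 3′ end of tRNA precursors, rose by 0.25 after STAT3 siRNA and 0.83 under WB436B, and RTCB, the tRNA ligase, by 0.12 and 0.60. The 2 genes that fell under WB436B numbered 1 without vehicle replicates 2 or 3, siRNA replicates 1 or 3, or WB436B replicates 1 or 2.

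A list of 12 genes covered subunits of RNA polymerase III, which transcribes tRNA genes, together with BRF1, BRF2 and MAF1. Of the 12, 7 rose and 1 fell after STAT3 siRNA, and 9 rose and 1 fell under WB436B, with medians of 0.32 and 0.38. For these counts too, and for those of the factors that follow, the share of all genes called higher was 29.8% after STAT3 siRNA and 24.9% under WB436B. POLR3K, a subunit, rose by 0.91 and 0.84, with 11.9, 13.5 and 11.5 FPKM after STAT3 siRNA, 12.3, 11.4 and 11.4 FPKM under WB436B, and 6.03, 6.30 and 5.92 FPKM in vehicle cells. MAF1, the repressor of this polymerase, was the gene that fell under WB436B, at 16.9, 16.6 and 16.6 FPKM, against 24.9, 23.7 and 21.5 FPKM in vehicle cells. Of the 10 tested mitochondrial translation factors 6 rose and 0 fell after STAT3 siRNA, and 6 rose and 0 fell under WB436B, where vehicle replicate 2 or WB436B replicate 2 left out gave 1 lower. GATC, a subunit of the amidotransferase that makes glutaminyl-tRNA in mitochondria, rose by 0.62 and 0.54, and TUFM, which carries charged tRNA to the mitochondrial ribosome, by 0.40 and 0.32.

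Of 4 tested subunits of elongation factor 1, which carries charged tRNA to the cytosolic ribosome, 3 rose after STAT3 siRNA and 1 under WB436B. EEF1B2, a nucleotide exchange subunit, rose by 0.28 and 0.42, and EEF1G by 0.35 after STAT3 siRNA with 0.02 (adjusted p = 0.71) under WB436B. Under median-of-ratios scaling all 4 passed as higher under WB436B. Of the 3 proofreading enzymes, 2 rose after STAT3 siRNA and 3 under WB436B. AARSD1, which clears tRNA mischarged with serine in place of alanine, rose by 0.23 after STAT3 siRNA and 0.59 under WB436B, while AARS, which charges alanine, was at 0.39 and -0.63. The count of 2 after STAT3 siRNA was 1 without any one of vehicle replicates 1 or 2, siRNA replicates 1, 2 or 3, or WB436B replicate 2.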

How the data were processed

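RNA-seq of 9 BxPC3 libraries was analysed, 3 per group. The authors deposited FPKM values in a single table with human Ensembl identifiers, symbols, 9 value columns and 3 empty ones. Bowtie 0.12.2 and a mouse genome build are named in the submitters' processing notes, which leaves the build uncertain. The FPKM program, annotation and strand setting are not stated in the sources used here. Because FPKM is relative to the library total, abundant genes that change shift all others. Steps between low FPKM values, each worth 1 fragment, gave the estimated depth.

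The filter of 1 FPKM in 3 or more of 9 libraries left 12747 genes (21.0%) for testing. Log2(FPKM + 1) of all 3 groups entered one unblocked limma-trend model (limma 3.58.1, R 4.3.3) with 6 residual degrees of freedom. The 3 contrasts were two-sided and Benjamini-Hochberg adjusted over all genes tested, with calls at an adjusted p below 0.05. With a pseudocount of 1, fold changes of weakly expressed genes are understated. For a single gene an exact permutation test of 3 against 3 cannot go below p = 0.1, the value for STAT3.

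The members and all gene lists were chosen with earlier results of these data known. Values per library are given for the members with the smallest p and largest change of each class and direction, for genes of both compartments and for members with opposite calls, and of other lists for up to 3 genes by smallest p. MYC and STAT3 are always named. ASNS and DDIT3, and in some comparisons ATF4, TRIB3, CHAC1, CEBPB and MAF1, fall outside that rule and were named for their role after their values were seen. Overlap with other genes came from GENCODE 29 and promoters from RefSeq (GRCh38.p14). Replicate numbers were not used as a pairing: over 9 same-numbered pairs, correlations of deviations ran from -0.09 to 0.16, and 2 were above 0.1. Between vehicle and siRNA libraries, however, same-numbered pairs stood at 0.042, 0.119 and 0.158, and differently numbered pairs at -0.124 to 0.014. These groups may therefore be paired by number, which the main model leaves out. Alternatives were other pseudocounts, filters, scalings, variance models, thresholds, a replicate block and leaving out each library.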

Additional observations from a re-analysis of the deposited data

How the results depend on the processing

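Depth limits the least abundant members most, FARS2, CARS2 and PARS2 among them. Of the called members, 9 of 13 cytosolic and 10 of 12 mitochondrial calls after STAT3 siRNA held under all 3 other scalings, as did 13 of 15 and 8 of 9 calls under WB436B against vehicle, and 11 of 16 and 6 of 9 calls of WB436B against STAT3 siRNA. Leaving out each of the 9 libraries kept 12 and 10, 14 and 6, and 15 and 7 of these calls. The cause of changed calls was not tested. FARSB, FARSA, KARS, TARS, HARS, VARS, RARS, NARS2, AARS, IARS, LARS, CARS2, WARS2, YARS2, QARS, WARS, CARS, PARS2 and TARS2 kept their call and direction under WB436B against vehicle in every scaling and with every library left out.

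The replicate block, for numbers not used as a pairing in the main model, kept 12 and 11, 14 and 8, and 15 and 9 calls. It ended those of CARS and CARS2 after STAT3 siRNA (adjusted p = 0.056 and 0.053), SARS and IARS2 under WB436B (0.058 and 0.051) and IARS between the treatments (0.068). A library matched best to its own number in 8 of 18 cases, while each vehicle library matched best to the siRNA library of its number. Between those groups the block may therefore apply, which bears on the CARS and CARS2 calls. Together with median-of-ratios scaling, the block also ended the rises of SARS (0.0995, adjusted p = 0.10) and EARS2 (0.2211, adjusted p = 0.063) after STAT3 siRNA.

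Taking the siRNA comparison first, that of WB436B with vehicle second and that between the treatments last, median-of-ratios scaling, with or without the replicate block, gave cytosolic medians of 0.0494, 0.2588 and 0.1828 and mitochondrial medians of 0.2259, 0.3384 and 0.0455. It turned PARS2 (-0.0025) and VARS2 (-0.0084) in the siRNA comparison, MARS (0.105), NARS (0.0639), SARS (0.049), EARS2 (0.0933) and SARS2 (0.019) under WB436B, and EPRS (0.177), GARS (0.1517), IARS (0.1109), LARS (0.1792), YARS (0.1864), HARS2 (0.1394), LARS2 (0.0124), RARS2 (0.0455), TARS2 (0.0861), WARS2 (0.069) and YARS2 (0.1393) between the treatments. There, 14 cytosolic members were higher (13 with the block) and 3 lower (2), 3 mitochondrial members lower (4), and 4019 genes higher (3893). Summed FPKM over vehicle was then 1.035 (cytosolic) and 1.075 (mitochondrial) after STAT3 siRNA, and 1.270 and 1.231 under WB436B. With equal totals these were 1.130, 1.174, 1.193 and 1.156, medians were 0.3825 (mitochondrial, STAT3 siRNA), 0.1787 and 0.2925 (cytosolic and mitochondrial, WB436B), 1 cytosolic member fell after STAT3 siRNA, and WARS (0.0081, STAT3 siRNA), MARS (0.018) and EARS2 (0.0278, both WB436B) changed sign. Quantile normalization gave a cytosolic median of 0.0227 under WB436B and turned GARS (-0.0941), YARS (-0.0439), EARS2 (0.1989), IARS2 (-0.0077) and VARS2 (0.1155). Between the treatments it gave medians of -0.1463 and -0.0476, 3 mitochondrial members lower, 3585 genes lower, and turned LARS2 (0.1011), TARS2 (0.0691), VARS2 (0.1049) and WARS2 (0.0355).

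A filter of 5 FPKM left 2382 genes higher and 1756 lower after STAT3 siRNA, 2412 lower under WB436B and 2583 lower between the treatments, with mitochondrial medians of 0.3596 (STAT3 siRNA) and -0.1207 (between), and 1 and 3 mitochondrial members lower. A pseudocount of 0.1 gave a mitochondrial median of 0.3485 after STAT3 siRNA. At an adjusted p below 0.01, 3 cytosolic members were lower after STAT3 siRNA and 3 mitochondrial members higher under WB436B. With at least 1.5-fold required, 2 cytosolic and 1 mitochondrial member rose and 0 fell after STAT3 siRNA (861 and 1062 of all genes). Under WB436B the cytosolic rises of FARSB, FARSA, KARS, VARS, HARS and RARS held, and 1 cytosolic member fell. In the mitochondrial set 1 member rose and 1 fell (1167 and 2678 of all genes), and STAT3 at -0.5156 no longer counted. Between the treatments 4 cytosolic members were higher and 1 lower, with 0 and 2 mitochondrial members (876 and 2532 of all genes).

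With single libraries left out, the mitochondrial median under WB436B ran from 0.1349 to 0.2060 and the count of mitochondrial members called higher from 4 to 7. Uncalled members crossed 0 with ranges, after STAT3 siRNA, of -0.1106 to 0.0255 for WARS and -0.0065 to 0.1096 for VARS2. Under WB436B these were -0.0074 to 0.0889 for GARS, -0.0824 to 0.0416 for EARS2 and -0.0539 to 0.1293 for HARS2. Between the treatments they were -0.0879 to 0.0035 for LARS, -0.0826 to 0.0011 for YARS and -0.1280 to 0.0071 for HARS2.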
